A study of Drosophila melanogaster with 16 samples.

Results

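The vacuolar H+-ATPase (V-ATPase) genes of *Drosophila melanogaster* were followed in 16 single whole flies, as the genes whose annotated symbol begins with Vha. Of 11982 genes with a probe set (the group of probes on the array that reads 1 transcript) annotated to 1 symbol, 31 met this rule, on 32 probe sets. The brightest probe set stood for its gene, and only Vha16-1 had a choice, between 2. The A subunit genes Vha68-1 and Vha68-2 were not analysed here, and the accessory subunit ATP6AP2 falls outside the rule because its symbol does not begin with Vha. In all, 13 genes were treated as broadly used subunits, being the only gene of their subunit or the paralogue used in most tissues, and 18 as other paralogues. Of these 18, Vha68-3 is an A subunit paralogue, and the A subunit has no gene among the 13.

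The study asked how chronic hypoxia (CH) affects flies that lack dystrophin. CH-*dmDys* and normoxic *dmDys* flies were the offspring of UASdmDysC-term and the ubiquitous driver P-tub-Gal4, which makes double-stranded RNA against all dystrophin isoforms in every tissue, and CH-WT and normoxic WT flies were the P-tub-Gal4 driver flies, so that all groups carried the driver and only *dmDys* carried the RNA interference construct. CH-*dmDys* flies were exposed to hypobaric hypoxia on Mount McKinley, and CH-WT flies to normobaric hypoxia in a chamber at the same oxygen levels, each for 2 weeks. Controls spent 2 weeks in room air, all flies are labelled as adults of 3 to 5 days, and each group held 4 flies. Because mountain and chamber went with genotype, the manner of exposure and the genotype cannot be told apart between the CH responses. Travel and altitude likewise went with CH in *dmDys* flies.

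The V-ATPase is a rotary proton pump. Its V1 sector in the cytosol hydrolyses ATP and turns a central shaft, and its V0 sector in the membrane carries protons across as its ring of proteolipids rotates. The pump acidifies lysosomes, endosomes and secretory vesicles in every cell, and in insects it also stands in the plasma membrane of epithelia such as the Malpighian tubule (the fly kidney), where its proton gradient drives the transport of ions and fluid. Several subunits have extra gene copies in *Drosophila*, some of them used mainly in the male germ line.

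Transcripts were measured on 16 Affymetrix arrays, 1 fly per array, and values are log2 of the intensity deposited by the authors. Levels of different V-ATPase genes were not set against each other, since probes differ in brightness, so the values of each gene are compared between flies only. The number of arrays limits the precision. The *dmDys* and WT arrays differed in scale, and whether they were normalized together is not given in the sources used here: the lowest log2 value was 2.06 in all *dmDys* arrays and 1.95 in the WT arrays, and the upper quartile lay between 10.17 and 10.28 against 8.98 to 9.09. All 16 flies had high levels of male accessory gland markers, and 10 to 12 of 12 egg and yolk markers in each fly lay within 0.5 of the floor. The 13 broadly used subunits lay between 10.43 and 14.46 in every fly.

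2 WT flies stood apart before any comparison. In CH-WT replicate 7 and normoxic WT replicate 5 the median of 23 testis markers was 2.21 and 2.22, and 18 and 17 of the 23 lay within 0.5 of the floor. In the other 6 WT flies this median lay between 13.02 and 13.40, and in the 8 *dmDys* flies between 13.54 and 14.16, with none of the 23 near the floor. In whole flies, fewer cells of a type and less RNA per cell cannot be told apart.

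In *dmDys* flies, 7 of the 13 broadly used V-ATPase subunits were higher in CH, and the other paralogues were divided, with 3 higher and 4 lower at adjusted p. A gene was called when its limma p, adjusted by Benjamini-Hochberg over the 18907 probe sets tested, was under 0.05 and its levels differed by 1 or more on the log2 scale. By this rule 3 of 31 V-ATPase genes were called (9.68%), against 9.53% of all probe sets. Adjusted p alone, with no limit on the size of the difference, was passed by 14 of 31 (45.2%), against 20.2% of all probe sets and 36.8% of those brighter than the median. Higher in CH-*dmDys* flies were 10 (32.3%), of which 7 were broadly used subunits and 3 other paralogues, against 9.62% of all probe sets and 17.1% of the brighter ones. Lower were 4 (12.9%), each of them one of the other paralogues, against 10.6% and 19.8%. The median log2 difference was 0.23 over the 13 broadly used subunits, of which 12 were above 0, and -0.43 over the 18 other paralogues, of which 12 were below 0. The median over all probe sets was -1e-04, and only 37.2% of all probe sets were above 0. In 1 fit over all 16 arrays, where the wider spread of the WT flies enters, none of the 31 passed adjusted p (0 of 31), against 1253 of all 18907 probe sets. The list of genes and both classes were chosen with earlier results of these arrays known.

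**Figure D1:**
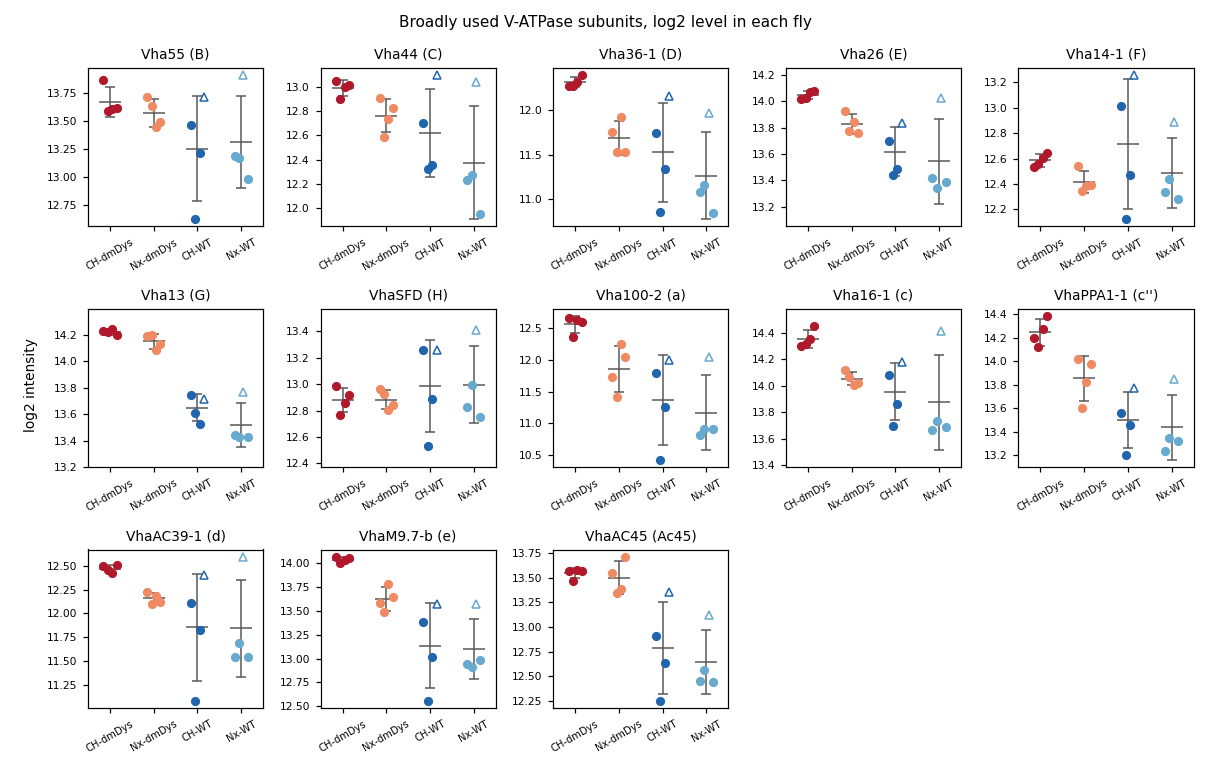
Log2 intensity of the 13 broadly used V-ATPase subunits in each fly (vertical axes, which differ in range), by group (horizontal axes); the letter after each symbol is the subunit, points are flies, dashes and bars are the mean and SD of 4 flies, and open triangles are the 2 WT flies with low testis markers. In 7 of the panels all 4 CH-*dmDys* flies lie above all 4 normoxic *dmDys* flies, and the open triangles lie at or near the top of the WT groups.

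Among the V1 subunits, the D and E subunits were higher in CH. Vha36-1 encodes the D subunit, the central shaft that turns within the V1 head. Its log2 level was 12.27, 12.26, 12.31 and 12.39 in the CH-*dmDys* flies (replicates 5, 6, 7 and 8, in this order throughout) and 11.76, 11.53, 11.92 and 11.53 in the normoxic *dmDys* flies (replicates 6, 7, 8 and 10). All CH-*dmDys* flies thus lay above all normoxic *dmDys* flies, 1.54-fold on average (log2 difference 0.63, standard error 0.10, limma adjusted p = 0.00841). Vha26 encodes the E subunit, part of the stalk that holds the head still. Its levels were 14.02, 14.02, 14.07 and 14.08 in CH-*dmDys* and 13.92, 13.77, 13.84 and 13.76 in normoxic *dmDys* flies. The groups did not overlap, and the change was small, 1.17-fold (log2 difference 0.22, standard error 0.04, adjusted p = 0.0131); with quantile normalization over the 16 arrays it fell to 0.14 and did not pass (adjusted p = 0.094).

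The other 5 broadly used V1 subunits did not pass the test in *dmDys* flies. For Vha55, the B subunit of the catalytic head, the log2 difference was 0.10, for Vha44, the C subunit that ties the stalk to the membrane sector, 0.23, for Vha14-1, the F subunit that sits beside the shaft, 0.17, and for Vha13, the G subunit of the stalk, 0.07. VhaSFD, the H subunit that restrains ATP hydrolysis by V1 heads released from the membrane, had a log2 difference of -0.00 (standard error 0.06), the one broadly used subunit at or below 0. Adjusted p of these 5 ran from 0.0547 for Vha14-1 to 1 for VhaSFD.

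All 5 broadly used V0 subunits were higher in CH-*dmDys* flies. Vha16-1 encodes the proteolipid c, the main component of the rotating ring. Its levels were 14.30, 14.32, 14.35 and 14.46 in CH-*dmDys* and 14.12, 14.07, 14.01 and 14.02 in normoxic *dmDys* flies, with no overlap. The log2 difference was 0.30 (standard error 0.04, adjusted p = 0.00588), and it passed without any 1 of the 8 flies. The other probe set of Vha16-1, which is dimmer and carries the suffix of probe sets that can match several transcripts, gave a larger log2 difference, 1.90 (standard error 0.20, adjusted p = 0.00287), so that both rose but by different amounts.

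VhaAC39-1 encodes the d subunit, which joins the shaft to the ring. Its levels were 12.49, 12.45, 12.43 and 12.51 in CH-*dmDys* and 12.23, 12.10, 12.19 and 12.12 in normoxic *dmDys* flies. The CH-*dmDys* flies were all higher and close to each other, and the log2 difference was 0.31 (standard error 0.03, adjusted p = 0.00311). VhaM9.7-b encodes a small membrane subunit, e. It stood at 14.06, 14.00, 14.03 and 14.05 in CH-*dmDys* and at 13.58, 13.49, 13.78 and 13.64 in normoxic *dmDys* flies. Again no fly of one group reached the other (log2 difference 0.41, standard error 0.06, adjusted p = 0.00766), 1.33-fold.

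The remaining pair of broadly used V0 subunits passed more narrowly. Vha100-2 encodes an a subunit, which forms the proton channels beside the ring. Its levels were 12.65, 12.36, 12.62 and 12.59 in CH-*dmDys* and 11.73, 11.41, 12.24 and 12.04 in normoxic *dmDys* flies, higher in every CH-*dmDys* fly (log2 difference 0.70, standard error 0.19, adjusted p = 0.0467), or 1.62-fold. It no longer passed without any 1 fly other than normoxic *dmDys* replicate 8 (limma adjusted p from 0.0657 to 0.116). VhaPPA1-1 encodes the proteolipid c'', another member of the ring. It measured 14.20, 14.12, 14.27 and 14.38 in CH-*dmDys* and 14.02, 13.60, 13.82 and 13.98 in normoxic *dmDys* flies. These ranges did not overlap, but the difference (log2 difference 0.39, standard error 0.11, adjusted p = 0.0483) no longer passed when any 1 of the 8 flies was left out (adjusted p from 0.0569 to 0.12) and with quantile normalization (0.103).

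The accessory subunits, which help the pump to assemble and to reach its membranes, were mixed. VhaAC45 had a log2 difference of 0.05 (adjusted p = 0.986) and the related VhaAC45RP one of -0.27 (adjusted p = 0.293). ATP6AP2, outside the symbol rule, was at 12.48 to 12.69 in CH-*dmDys* flies and at 11.51 to 12.04 in normoxic *dmDys* flies, and passed (log2 difference 0.85, standard error 0.15, adjusted p = 0.0123).

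**Figure D2:**
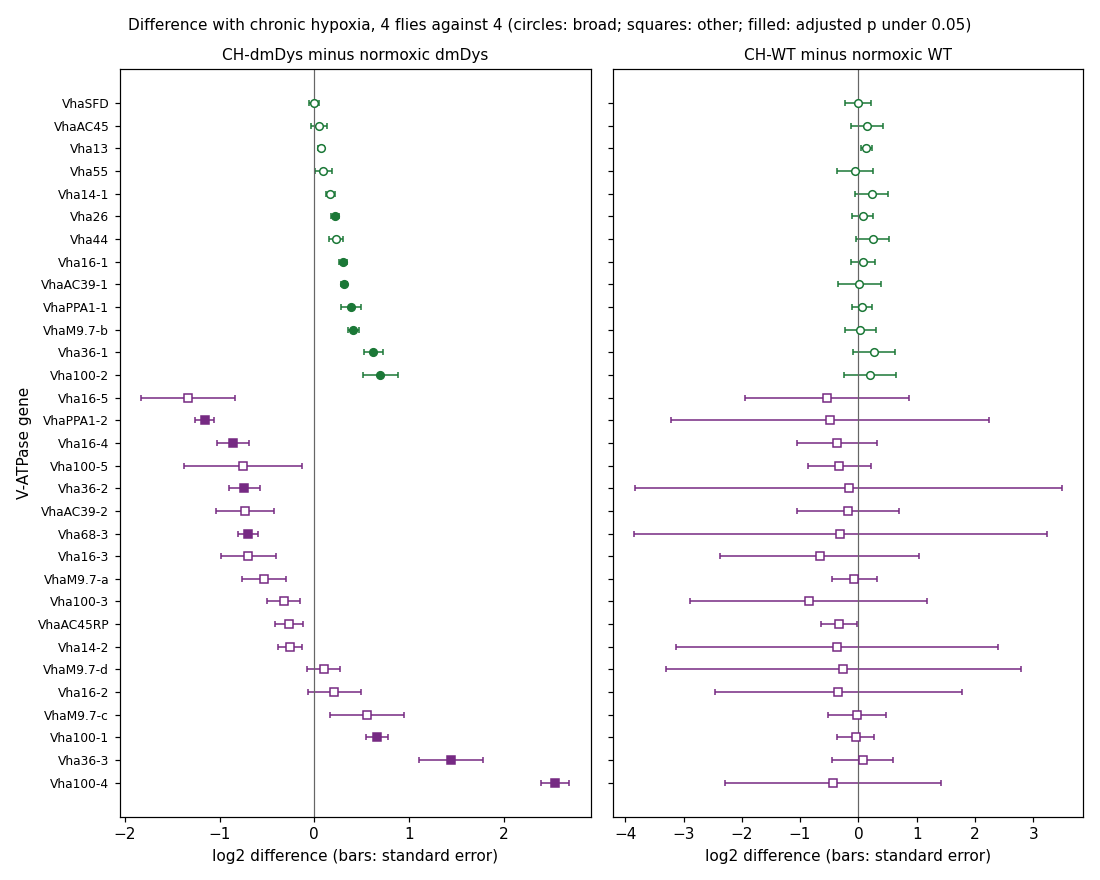
Log2 difference with CH of each of the 31 V-ATPase genes (horizontal axes, which differ in range between the panels), in *dmDys* flies on the left and in WT flies on the right, with bars for the standard error from limma. Circles are the 13 broadly used subunits, squares are the 18 other paralogues, and filled symbols passed an adjusted p of 0.05; there are 14 filled symbols on the left and none on the right, where the bars of many paralogues are wider.

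Among the other paralogues, 3 were higher in CH-*dmDys* flies. Vha100-4, an a subunit, was at 2.09, 2.08, 2.11 and 2.08 in normoxic *dmDys* flies, close to the lowest value the arrays give, and at 4.70, 4.43, 4.37 and 5.04 in CH-*dmDys* flies. This log2 difference, 2.55 with standard error 0.15 and limma adjusted p = 4.39e-04, is measured from that floor and fell to 0.64 (adjusted p = 0.0335) when all values below a log2 of 4 were set to 4. In WT flies Vha100-4 was at 2.35, 2.21, 7.03 and 2.35 in CH-WT (replicates 3, 5, 6 and 7) and at 2.85, 2.21, 8.42 and 2.20 in normoxic WT flies (replicates 2, 3, 5 and 6). A single fly of each WT group, CH-WT replicate 6 and normoxic WT replicate 5, stood far above the other 3. The same 2 flies had the highest median of 9 midgut enzyme markers in their groups, 12.36 and 13.39, and that of the CH-*dmDys* flies ran from 12.02 to 13.73 against 11.10 to 12.64 in normoxic *dmDys* flies. CH-*dmDys* replicate 8 was the highest *dmDys* fly for both. Normoxic *dmDys* replicates 6 and 8 (12.64 and 12.26) lay above CH-*dmDys* replicate 7 (12.02) in this median. Their Vha100-4 levels were 2.09 and 2.11, against 4.37 in that CH-*dmDys* fly. The part of midgut content in the result was not tested. Vha100-4 lies next to Vha100-2 in the genome, with no coding gene between them.

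Vha36-3, a D subunit paralogue, was at 9.68, 10.48, 9.97 and 10.18 in CH-*dmDys* and at 8.19, 8.02, 9.08 and 9.23 in normoxic *dmDys* flies. Every CH-*dmDys* fly was higher, and the log2 difference was 1.45 (standard error 0.34, adjusted p = 0.0309), or 2.72-fold. Leaving out CH-*dmDys* replicate 6, 7 or 8, or else replicate 6 or 7 of the normoxic flies, lost the call (adjusted p from 0.0680 to 0.0839). Vha100-1, the a subunit of neurons and synaptic vesicles, was at 11.57, 11.58, 11.69 and 11.63 against 11.29, 10.89, 10.76 and 10.87. The lowest CH-*dmDys* fly lay above the highest normoxic *dmDys* fly (log2 difference 0.67, standard error 0.12, adjusted p = 0.012), a change close to that of Vha100-2.

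The paralogues that fell in CH-*dmDys* flies belonged to the A, D, c and c'' subunits. VhaPPA1-2 was at 9.92, 9.67, 9.87 and 9.57 in CH-*dmDys* and at 10.76, 10.87, 10.99 and 11.05 in normoxic *dmDys* flies, the only called fall (log2 difference -1.16, standard error 0.10, adjusted p = 0.00183). It lies close to VhaPPA1-1, with 1 coding gene between them, and the pair moved in opposite directions. Vha68-3, a paralogue of the catalytic A subunit, was at 12.64, 12.70, 12.68 and 12.40 against 13.43, 13.34, 13.08 and 13.36. It was lower in all CH-*dmDys* flies, by 0.70 on average (log2 difference -0.70, standard error 0.10, adjusted p = 0.00716).

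Vha36-2, the other D subunit paralogue, was at 12.29, 12.78, 12.80 and 12.56 in CH-*dmDys* and at 13.49, 13.55, 13.01 and 13.34 in normoxic *dmDys* flies. The groups did not overlap (log2 difference -0.74, standard error 0.17, adjusted p = 0.0262), but did not pass when CH-*dmDys* replicate 8, or else replicate 6, 7 or 10 of the normoxic flies, was left out (adjusted p from 0.0658 to 0.0733). Vha16-4, a c subunit paralogue, was at 4.83, 4.73, 4.83 and 4.83 against 5.45, 5.33, 5.76 and 6.12. The CH-*dmDys* flies were nearly equal and all lower (log2 difference -0.86, standard error 0.17, adjusted p = 0.0184), but this did not pass without CH-*dmDys* replicate 6, 7 or 8 (adjusted p from 0.0524 to 0.0541).

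A further pair of paralogues had large or separate values without passing. Vha16-5 had a log2 difference of -1.33 but a standard error of 0.50 (adjusted p = 0.119), its levels being 4.58, 4.44, 4.02 and 5.11 in CH-*dmDys* and 5.34, 4.89, 6.34 and 6.89 in normoxic *dmDys* flies, which overlap. VhaM9.7-a, an e subunit paralogue, was at 8.98, 8.50, 8.94 and 9.02 against 9.99, 9.30, 9.17 and 9.11 (log2 difference -0.53, standard error 0.23, adjusted p = 0.176), lower in every CH-*dmDys* fly, though its nearest normoxic fly lay close by. The other 9 paralogues had log2 differences from -0.75 for Vha100-5, which spread widely in CH-*dmDys* flies, to 0.55 for VhaM9.7-c, with ranges that overlapped between the groups. In all, 15 of 31 genes (48.4%) had groups that did not overlap, 10 higher and 5 lower, against 29.1% of all probe sets and 47.4% of the brighter ones, in either direction.

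**Figure D3:**
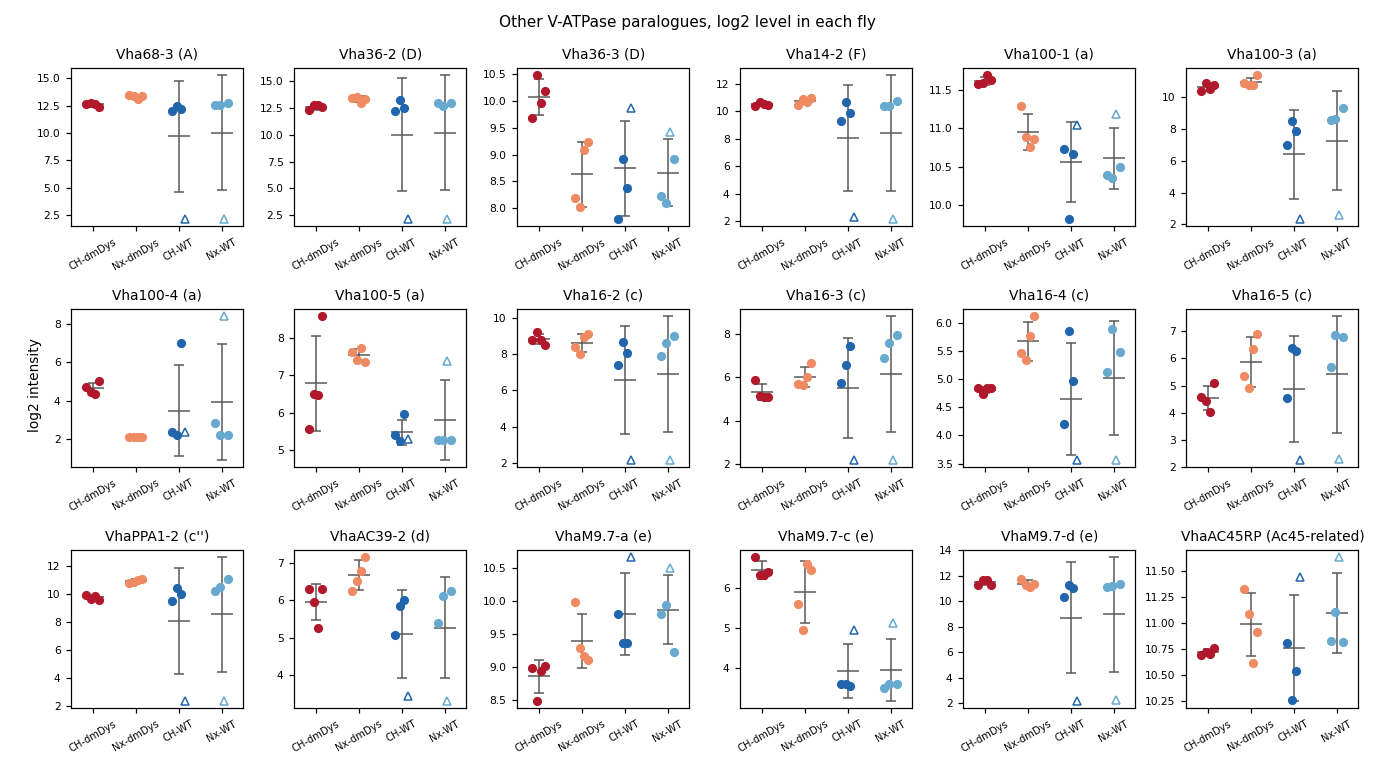
Log2 intensity of the 18 other V-ATPase paralogues in each fly (vertical axes, which differ in range), by group (horizontal axes); the letter after each symbol is the subunit, points are flies, dashes and bars are the mean and SD of 4 flies, and open triangles are CH-WT replicate 7 and normoxic WT replicate 5. In 11 panels both open triangles lie below all other WT flies, and in 5 panels they lie above them.

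Several other measures moved with CH in *dmDys* flies. For 3 control transcripts (Act5C, Gapdh, eIF-4a) the arrays hold probe sets at the 3' and at the 5' end, whose log2 difference grows as less of a transcript is preserved and amplified; its mean was 2.54 to 3.84 in CH-*dmDys* and 4.58 to 9.37 in normoxic *dmDys* flies, so it cannot be told apart from CH here. Normoxic *dmDys* replicate 8 had the smallest difference of its group. It was the highest fly of that group for 3 of the 13 broadly used subunits and the lowest for 4. Highest were Vha36-1, Vha100-2 and VhaM9.7-b, whose log2 differences with CH, 0.63, 0.70 and 0.41, were the largest of the 13. Lowest were Vha55, Vha13, VhaSFD and Vha16-1, with 0.10, 0.07, -0.001 and 0.30. Normoxic *dmDys* replicate 6, with a mean 3' to 5' difference of 8.21, was the highest fly of its group for 8 of the 13. Replicate 7, with 9.37, was the lowest for 8. Of the paralogues that fell, Vha68-3 (13.08) and Vha36-2 (13.01) had their lowest normoxic *dmDys* value in replicate 8. Vha16-4 and VhaPPA1-2 did not. The dimmer probe set of Vha16-1 was at 11.27 in normoxic *dmDys* replicate 8 and at 10.55 to 11.07 in the other normoxic *dmDys* flies. In CH-*dmDys* flies it was lowest in replicate 5 (12.46), which had the largest mean 3' to 5' difference of that group (3.84). In that same fly Vha100-2 (12.65) and VhaM9.7-b (14.06) were the highest of the CH-*dmDys* flies, and Vha36-1 (12.27) was close to the lowest (12.26). The part of transcript preservation in these values was not tested. The summed intensity of 23 testis markers was 299700 to 317250 in CH-*dmDys* and 327870 to 345430 in normoxic *dmDys* flies. At adjusted p, 9 of the 23 were lower and 1 higher. The shares of all probe sets were 10.6% lower and 9.62% higher, and of the brighter ones 19.8% and 17.1%. The part of testis content in the falls of the paralogues was not tested. Of 10 Malpighian tubule markers, 4 were higher and none lower at adjusted p in CH-*dmDys* flies, against these same shares. Irk1, ZnT35C and Oatp58Db had log2 differences below 0 (-0.93, -0.27 and -0.12), and the others were above 0. Oatp58Da, among the 4, lay near the floor in normoxic *dmDys* flies (2.10 to 2.11). The summed intensity of the 10 was 24992 to 28282 against 18532 to 22537, without overlap. Whether tubule content had a part in the rise of the broadly used subunits was not tested. None of 9 midgut or 10 accessory gland markers passed, against 20.2% of all probe sets.

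In WT flies no V-ATPase gene passed the test with CH. None of the 31 genes passed limma, as no probe set did (0% of 18907), and none had an unadjusted p under 0.05, against 1.23% of all probe sets. In none did the groups separate (0.873% of all probe sets). SAM called no V-ATPase gene either. The broadly used subunits had a median log2 difference of 0.08, with 11 of 13 above 0, and the other paralogues one of -0.33, with 17 of 18 below 0 (a median that ran from -1.22 without normoxic WT replicate 5 to 0.35 without CH-WT replicate 7). The median of all probe sets was -0.0019, and only 31.2% of all probe sets were above 0. Vha36-1, with the largest difference of the broadly used subunits, was at 11.74, 10.86, 11.33 and 12.16 in CH-WT and at 11.08, 11.16, 11.96 and 10.84 in normoxic WT flies. These ranges overlap almost wholly, and the log2 difference was 0.26 (standard error 0.36). Vha44 and Vha14-1 followed with 0.24 (standard error 0.28) and 0.23 (standard error 0.28). Of the other paralogues, Vha100-3 had the largest difference, -0.85, with a standard error of 2.03, followed by Vha16-3 at -0.66 (standard error 1.71) and Vha16-5 at -0.54 (standard error 1.40). Without CH-WT replicate 7, whose testis markers were low, these 3 turned to 0.51, 0.43 and 0.33, and without both low flies they were -1.04, -0.88 and -0.71, still with no call among the 31 genes.

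The 2 WT flies with low testis markers stood apart from the other 6 for many paralogues too. In both, 11 of the 18 other paralogues (61.1%) lay below all other 6 WT flies, against 13.2% of all probe sets and 24.5% of the brighter ones. Of these, 8 were within 0.5 of the floor: Vha68-3, Vha36-2, Vha14-2, Vha16-2, Vha16-3, Vha16-5, VhaPPA1-2 and VhaM9.7-d. Vha68-3 was at 2.10 in both flies and between 11.98 and 12.74 in the other 6, and Vha36-2 was at 2.10 in both and between 12.21 and 13.24 in the other 6. VhaM9.7-d, an e subunit paralogue, was at 2.21 in both, against 10.36 to 11.39. Vha16-4, VhaAC39-2, a d subunit paralogue, and Vha100-3 were also low in both but not within 0.5 of the floor in each; Vha100-3 was at 2.32 in CH-WT replicate 7, within that distance, and at 2.61 in normoxic WT replicate 5.

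Vha36-3, Vha100-1, VhaAC45RP, VhaM9.7-a and VhaM9.7-c went the opposite way, above all other 6 WT flies in both, as did 10 of the 13 broadly used subunits (76.9%), against 38.6% of all probe sets and 47.3% of the brighter ones. Vha16-1, for example, was at 14.18 in CH-WT replicate 7 and at 14.42 in normoxic WT replicate 5, and between 13.66 and 14.08 in the other 6 flies. The flies and this grouping were picked out after their values were known. An array gives a share of the RNA of a fly and not an amount per cell.

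**Figure D4:**
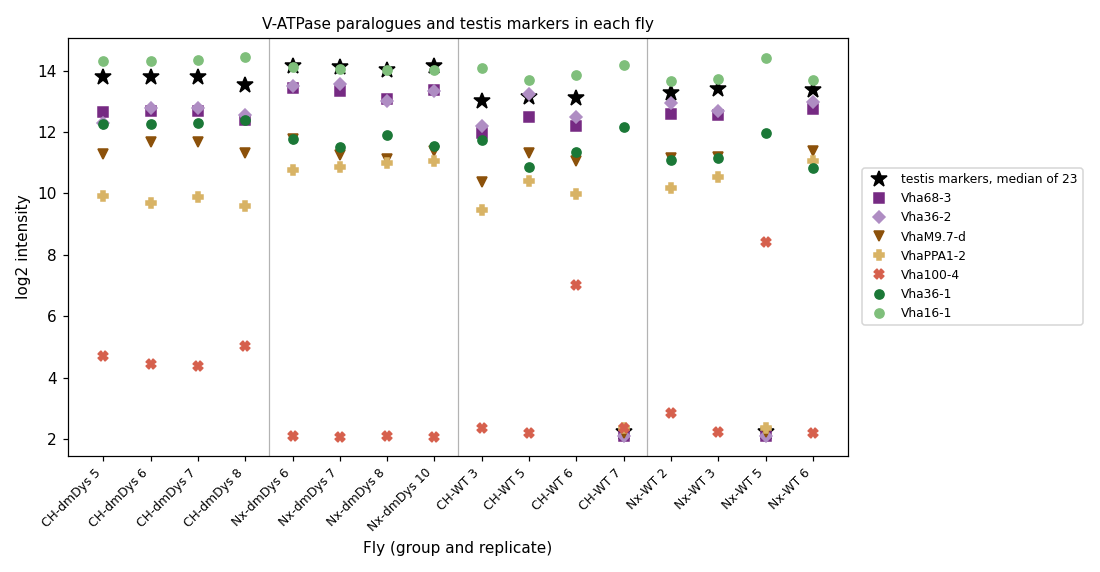
Log2 intensity (vertical axis) in each of the 16 flies (horizontal axis, by group and replicate) of 5 paralogues, of the broadly used Vha36-1 and Vha16-1 (green circles), and of the median of 23 testis markers (stars). In CH-WT replicate 7 and normoxic WT replicate 5 the stars drop to 2.21 and 2.22, with Vha68-3, Vha36-2, VhaM9.7-d and VhaPPA1-2 near the floor beside them, while Vha36-1 and Vha16-1 stay high; the cross of Vha100-4 follows another pattern.

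Between normoxic *dmDys* and normoxic WT flies the direction of the V-ATPase genes depended on the scaling. After quantile normalization over all 16 arrays, 2 genes were called, both lower in *dmDys* flies (6.45%, against 8.07% of all probe sets in either direction and 4.84% lower). At adjusted p alone 4 passed, all lower (12.9%, against 18.1% of all probe sets in either direction and 11.3% lower). VhaM9.7-a was at 8.58 to 9.46 in normoxic *dmDys* and 9.79 to 11.07 in normoxic WT flies on this scale (log2 difference -1.59, standard error 0.33, adjusted p = 0.0206). VhaAC45RP was at 10.03 to 10.81 against 11.33 to 12.12 (log2 difference -1.15, standard error 0.24, adjusted p = 0.0217). Vha14-1 and VhaSFD had log2 differences of -0.97 (adjusted p = 0.00921) and -0.94 (adjusted p = 0.00855), also with ranges that did not overlap. The calls of VhaM9.7-a and VhaAC45RP were lost without normoxic *dmDys* replicate 7, 8 or 10 or normoxic WT replicate 3, and with arrays centred on the median there were 0 calls. None of these 4 passed on the values as deposited, where their log2 differences were -0.48, -0.11, -0.07 and -0.11. There 5 other genes passed adjusted p (16.1%), all of them higher in *dmDys* flies, against 61.3% of all probe sets in either direction and 20.7% higher. These were Vha13, VhaAC45 and VhaM9.7-b with log2 differences of 0.64, 0.86 and 0.52, and Vha100-5 and VhaM9.7-c with 1.73 and 1.93. Vha100-5 and VhaM9.7-c were also called (6.45%, against 18.5% of all probe sets in either direction and 14.6% higher). The median of the broadly used subunits went from -0.48 with quantile normalization to 0.39 as deposited and 0.04 with arrays centred on the median, so no direction is given for the class.

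The difference between the CH responses of *dmDys* and WT flies was tested as an interaction over all 16 arrays, and no V-ATPase gene passed (0 of 31, and 0 at an unadjusted p under 0.05). Of all probe sets, 0.894% were called and 8.13% had an unadjusted p under 0.05. SAM was not run on this interaction. The estimates of the genes that were higher in CH-*dmDys* flies were 0.36 for Vha36-1 (standard error 0.38), 0.50 for Vha100-2 (standard error 0.49), 0.22 for Vha16-1 (standard error 0.21) and 1.37 for Vha36-3 (standard error 0.63). The dimmer probe set of Vha16-1, which did not stand for the gene, had a larger estimate of 1.76 (standard error 0.52). Its limma p was 0.0051 unadjusted and 0.193 adjusted, so it did not pass either. Without the 2 WT flies with low testis markers there was again no call among the 31 genes. The passing of a gene in *dmDys* and not in WT flies is therefore not shown to be a difference between them.

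The 32 measured partners of the pump are a list of regulators, lysosomal proteins and ion transporters that work beside it. In CH-*dmDys* flies 10 were higher and 3 lower at adjusted p. The shares of all probe sets were 9.62% higher and 10.6% lower, and of the brighter ones 17.1% and 19.8%. The median log2 difference of the 32 was 0.27. Irk1, Irk2, Irk3 and Nhe3 are also among the tubule markers above. Irk3, a potassium channel of the tubule, was at 10.74 to 11.35 in CH-*dmDys* and 8.97 to 9.72 in normoxic *dmDys* flies (log2 difference 1.76, standard error 0.21, adjusted p = 0.00413). Nha1, a cation/proton exchanger of epithelia, was higher by 1.56 (standard error 0.20, adjusted p = 0.0047), on a probe set that can match several transcripts. The chloride channel family member ClC-b rose by 1.27 (standard error 0.14, adjusted p = 0.00351), and CtsB, the lysosomal protease cathepsin B, by 1.25 (standard error 0.17, adjusted p = 0.00588). The other cathepsins of the list, CtsL1, CtsF and cathD, did not pass (adjusted p = 0.0516, 0.304 and 0.352), and spin, a lysosomal membrane transporter, was lower (log2 difference -0.44, adjusted p = 0.049). Mitf, the transcription factor whose relatives in mammals activate lysosomal and V-ATPase genes, went the other way, at 4.22 to 5.43 against 6.53 to 7.17 (log2 difference -2.05, standard error 0.29, adjusted p = 0.0063). No partner passed in WT flies, where their median was 0.22.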

How the data were processed

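Total RNA of single whole flies was amplified with the NuGEN Ovation system and hybridized to Affymetrix Drosophila Genome 2.0 arrays. The deposited values are linear intensity that the authors obtained by GCRMA with GeneSpring, 1 column for each fly; log2 was taken here without an offset. The titles gave the groups, although other labels conflict: the strain of CH-WT replicate 3 reads *dmDys*, 1 other CH-WT fly carries an additional number, no strain is given for CH-*dmDys* replicate 5, and CH stands in the source names of normoxic *dmDys* flies. Genes were named from the annotation of the array platform. All 18952 probe sets except 45 hybridization controls were tested.

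limma 3.58.1 (R 4.3.3) was run for every comparison separately on 8 arrays, the genotypes after quantile normalization over 16 arrays, and the difference of the CH responses on 16 arrays; p-values were adjusted by Benjamini-Hochberg over 18907 probe sets. The fits were tested on simulated arrays. The members, classes and marker lists were chosen with earlier results of these data known. Every gene with adjusted p under 0.05, with a called difference, with separate groups among paralogues, or among the 3 largest differences of its class with CH is named with its values; of partners, the called ones. Alternatives were other normalizations, array weights, moderation with trend, 1 fit over 16 arrays, a floor, filters on dim or cross-hybridizing probe sets (7 of the 31 genes are on such probe sets), all probe sets of a gene, no fold threshold, SAM (the test of the methods, re-implemented), the replicate block, and leaving out flies. The class medians were also taken with Vha68-1, Vha100-1 and VhaM9.7-a counted as broadly used, though Vha68-1 was not analysed. The class medians without both WT flies with low testis markers were added after seeing the data. A search of promoters for binding motifs was planned and not run.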

Additional observations from a re-analysis of the deposited data

Results flagged for a closer look

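Of 124 sets of 4 flies (31 V-ATPase genes in 4 groups), 30 held a fly far from the other 3 by Dixon's test; chance gives about 1 in 20. Most were in the WT flies with low testis markers. CH-WT replicate 7 was the distant fly for Vha68-3 (2.10), Vha36-2 (2.10), Vha14-2 (2.34), VhaPPA1-2 (2.37) and VhaM9.7-d (2.21), all below their group, and for VhaM9.7-c (4.94), above it. Normoxic WT replicate 5 was below its group for Vha68-3 (2.10), Vha36-2 (2.10), Vha14-2 (2.14), Vha100-3 (2.61), Vha16-2 (2.17), VhaPPA1-2 (2.37) and VhaM9.7-d (2.21). The same fly was above its group for the broadly used Vha26 (14.02), Vha13 (13.77), Vha100-2 (12.04), Vha16-1 (14.42), VhaAC39-1 (12.60) and VhaM9.7-b (13.57), and for Vha100-4 (8.42), Vha100-5 (7.39) and VhaM9.7-c (5.11). The other 3 flies of that group held Vha100-5 between 5.26 and 5.29, so its level there rests on this fly.

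Outside these flies, CH-WT replicate 6 stood above its group for Vha100-4 (7.03). Among CH-*dmDys* flies, replicate 5 was high for Vha55 (13.87), Vha16-3 (5.85) and VhaM9.7-c (6.77), and replicate 6 was low for VhaAC45 (13.47), Vha16-4 (4.73) and VhaM9.7-a (8.50). Of these, Vha16-4 passed adjusted p between the *dmDys* groups and was lower in all CH-*dmDys* flies, replicate 6 included. Normoxic *dmDys* replicate 10 was high for Vha100-3 (11.37).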

How the results depend on the processing

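In *dmDys* flies, the 3 called V-ATPase genes and the 14 at adjusted p became 0 and 0 in 1 fit over 16 arrays, which shares the spread of the WT flies, and 0 and 0 with the replicate block. Of all 18907 probe sets, 1801 were called and 3819 passed at first, 912 and 1253 in that 1 fit, and 12 and 29 with the block. So few passed with the block that 0 of 31 says little about these genes. With no fold threshold 14 genes were called. Without 1 fly, 2 to 3 genes were called and 10 to 14 passed adjusted p, against 1255 to 2109 and 2357 to 4155 of all probe sets. The class medians then ran from 0.203 to 0.273 (broadly used) and from -0.50 to -0.303 (other paralogues). The remaining settings gave 2 to 4 calls, against 461 to 2258 of all probe sets. In the genotype comparison the 2 calls and 4 at adjusted p became 2 and 5 other genes, all higher, with values as deposited, 0 and 0 with arrays centred on the median, 7 and 17 with array weights, and 5 and 15 without both WT flies with low testis markers. In 1 fit over 16 arrays 7 passed adjusted p, no fold threshold gave 4 calls and SAM 0. Of all 18907 probe sets, 1526 were called and 3413 passed at first, 2807 and 8589 with array weights, and 2742 and 8497 without both WT flies. As deposited these were 3504 and 11596, and with centred arrays 1862 and 2201. The 1 fit passed 4179, and SAM called 571. Without 1 fly, 0 to 5 of the 31 genes were called and 2 to 15 passed, against 883 to 2742 and 1966 to 8497 of all probe sets. The calls of VhaAC45RP and VhaM9.7-a were lost without normoxic *dmDys* replicate 7, 8 or 10 or normoxic WT replicate 3, and that of VhaM9.7-a also without normoxic WT replicate 2 (adjusted p from 0.0520 to 0.0698). The median of the broadly used subunits was 0.387 as deposited and 0.039 centred, and without 1 fly from -0.537 to -0.279; that of the other paralogues ran from -0.652 to 0.899. No call was made among the 31 genes in WT flies or for the interaction in any setting or without any fly. Of all probe sets, 0 to 10 were called in WT flies and 26 to 698 for the interaction. The medians there without 1 fly were -0.014 to 0.260 and -1.215 to 0.354 (WT), and -0.013 to 0.298 and -0.879 to 1.201 (interaction). The cause of these changes was not tested.

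Deviations of same-numbered flies from their group means correlated only weakly in *dmDys* flies, at -0.194, -0.027 and 0.107. In WT flies they correlated at 0.669, -0.88 and 0.613. The WT group means include the 2 flies with low testis markers, so whether fly numbers pair the WT samples cannot be judged from these. With the replicate block in WT flies, Vha36-1 turned to -0.012, Vha14-1 to 0.000, Vha100-3 to 0.933, Vha16-3 to 0.674 and Vha16-5 to 0.425; without 1 fly the last 3 ran from -2.408 to 0.509, -1.982 to 0.433 and -1.579 to 0.330, the upper ends without CH-WT replicate 7, none called. The genotype groups share 1 number, so no block was fitted there. Values near the floor carry little order, and the number of arrays limits every value.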
